A study of Mus musculus with 10 samples.

Results

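The mitosis and spindle genes are a set of 50 named genes whose products run cell division from the entry into mitosis to cytokinesis, read here in the uterus of 8-week-old CD-1 mice, an outbred stock. A gene entered by its symbol in the array's annotation and was tested if at least 1 of its probes was detected (detection p under 0.05) on 2 or more of the 10 Illumina bead arrays, with the probe of highest mean standing for the gene. By this rule 38 of the 50 genes were tested, among 12403 named genes tested on these arrays. Pregnant dams had received bisphenol A (BPA), an estrogen-like plastics monomer, at 5 mg/kg per day or DMSO, its vehicle, on gestation days 9 to 21. All offspring, controls included, were ovariectomised at 6 weeks, so the ovarian source of estrogen was gone in every group. At 8 weeks they were injected with 300 ng of estradiol (E2) or with DMSO, and the uterus was taken 6 h later. The 4 groups were vehicle in utero then vehicle (2 arrays), vehicle in utero then E2 (2 arrays), BPA in utero then vehicle (3 arrays) and BPA in utero then E2 (3 arrays). RNA had been pooled by litter before hybridisation, and by the litter numbers in the labels 2 vehicle litters and 3 BPA litters each gave 1 array per injection.

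A dividing cell builds its mitotic machinery late in the cycle, when a shared program of transcription raises cyclins, kinases, kinetochore proteins and spindle motors together, and the proteins are destroyed again as mitosis ends. Estradiol is a mitogen of the uterine epithelium in the ovariectomised mouse: epithelial cells enter the cycle first, and DNA synthesis and mitosis follow only later. Transcripts of these genes are therefore widely used as a reading of how many cells of a tissue are in or near mitosis.

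Between 19723 and 21109 of 45281 probes (43.6% to 46.6%) were detected per array, and arrays of 1 group correlated at 0.992 to 0.994 (Pearson's r across units tested, a description). Slide 1 carried all 4 arrays of vehicle in utero, and slide 2 all 6 of BPA in utero. Each E2 response was therefore measured within a slide, whereas for the BPA effects slide and exposure cannot be told apart. Levels are normalized log2 intensities, changes are differences of group means of these with their standard error (SE), and a gene was called at a Benjamini-Hochberg adjusted p under 0.05 in 1 limma fit over all 16272 units tested. The labels name litters, not animals, so the p-values measure the spread between these litter pools. In whole uterus, fewer dividing cells and less RNA per dividing cell cannot be told apart.

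Of the 12 genes left out, the mitotic cyclin Ccnb1 and the proliferation antigen Mki67 had no probe under their symbols and are not analysed here. Another 8 (Bub1, Ccnb2, Cenpe, Cenpf, Cks2, Hmmr, Racgap1 and Ttk) were detected on 0 arrays, with raw signals between 96.2 and 131.4 over all their probes. Just outside the threshold, Trip13 and Ube2c were detected on 1 array each, with raw signals of 114.9 to 134.5 and 107.6 to 134.6. Just inside it, Ccna2 and Kif20a were detected on 2 arrays (raw signals of 101.9 to 130.3 and 107.5 to 140.9) and Pttg1 on 3 (112.6 to 132.9). Members that did not pass are not shown to be absent from the tissue, only to lie at the arrays' background.

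In the uterus of BPA-exposed offspring, most mitotic genes were lower 6 h after E2 than after vehicle. Of the 38 tested, 32 were lower and 0 higher, where 13.7% of all units tested were called lower and 15.3% higher. At an unadjusted p under 0.05, a threshold counted for members only here and below, 32 were lower and 1 was higher. The latter was Kif20a, which entered the test only through 2 BPA-E2 arrays. The median change of the 38 was -0.93, against 0.03 over all units. The largest falls were those of the microtubule depolymerase Kif2c (-1.77 ± 0.11), the phosphatase Cdkn3 (-1.55 ± 0.085), survivin, Birc5 (-1.55 ± 0.094), and Cdca3, which promotes mitotic entry (-1.52 ± 0.11). Of the 32 called genes, 17 fell at least 2-fold in this fit, with the share over all units not counted. The size of the falls depended on the background correction, as given below. For each of the 32 the E2 arrays lay below the vehicle arrays with no overlap, which also makes each lower in all 3 litters. This describes the called genes and is not further support, and its share over all units was not counted. The 6 that were not called (Ccna2, Ect2, Kif20a, Nuf2, Pttg1 and Spc24) had mean levels of 4.64 to 6.60 (median 5.00), and the 32 called had mean levels of 5.22 to 10.96 (median 8.01).

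After vehicle in utero few of them were called at the same dose. Of 38, 5 were lower (Aurkb, Bub1b, Cdkn3, Kif4 and Nusap1) and 1, Mad2l1, was higher, with 11.4% of all units called lower and 11.0% higher, so the share of members called lower (13.2%) was near the background. At an unadjusted p under 0.05 by limma, 10 were lower and 1 was higher, with the share over all units not counted. A negative change was seen in 28 of 38, and in 7703 of all 16272 units. The median change was -0.21, against 0.02 over all units. In both litters 24 of 38 were lower, a share that was not counted over all units. The count of 5 was not stable: it was 1 without vehicle-vehicle replicate 2, 3 and 2 without vehicle-E2 replicates 1 and 2, 3 with litter as a block (adjusted p = 0.092 for Cdkn3 and 0.0581 for Nusap1) and 0 with these 4 arrays alone. It was 10 without background correction, 9 with cyclic loess and 10 in the authors' processed values. Shares over all units are not given for these settings, so the nearness to the background holds for the main fit only.

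The responses themselves differed. Tested as an interaction in the same fit, the response after BPA was lower than that after vehicle for 22 of 38 genes and higher for 0, where 7.70% of all units were called lower and 7.87% higher. At an unadjusted p under 0.05, 28 were lower and 0 higher, with the share over all units not counted. A negative difference was seen in 34 of 38, and in 8294 of all 16272 units. The median difference was -0.80, against -0.01 over all units. The 3 arrays of the BPA-E2 group lay below all 7 other arrays for 30 of the 38 genes, a pattern that 12.5% of all units showed, and the exceptions among the 32 called genes were Cenpm and Mad2l1. Of the 22, Tpx2, Kif4, Cdc25c and Aurka lost the call under some settings. With litter as a block Tpx2 had an adjusted p of 0.0677, Kif4 of 0.0582 and Cdc25c of 0.0551, while Melk gained a call (0.0332). Tpx2 lost it without any 1 array other than vehicle-vehicle replicate 1 and BPA-vehicle replicate 2 (adjusted p of 0.0557 to 0.112), and Kif4 without any 1 of the 4 vehicle-exposed arrays, BPA-vehicle replicate 1 or BPA-E2 replicates 1 or 2 (0.0528 to 0.0726). Cdc25c lost it without vehicle-vehicle replicate 1 or vehicle-E2 replicate 2 (0.0544 and 0.0539), and Aurka without vehicle-vehicle replicate 2 or vehicle-E2 replicate 2 (0.0576 and 0.059).

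Averaged over the 38 genes, the log2 level was 7.95 and 7.90 on the vehicle-vehicle arrays, 7.75 and 7.76 on the vehicle-E2 arrays, 7.89, 7.93 and 7.91 on the BPA-vehicle arrays and 6.99 to 7.04 on the 3 BPA-E2 arrays.

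**Figure D1:**
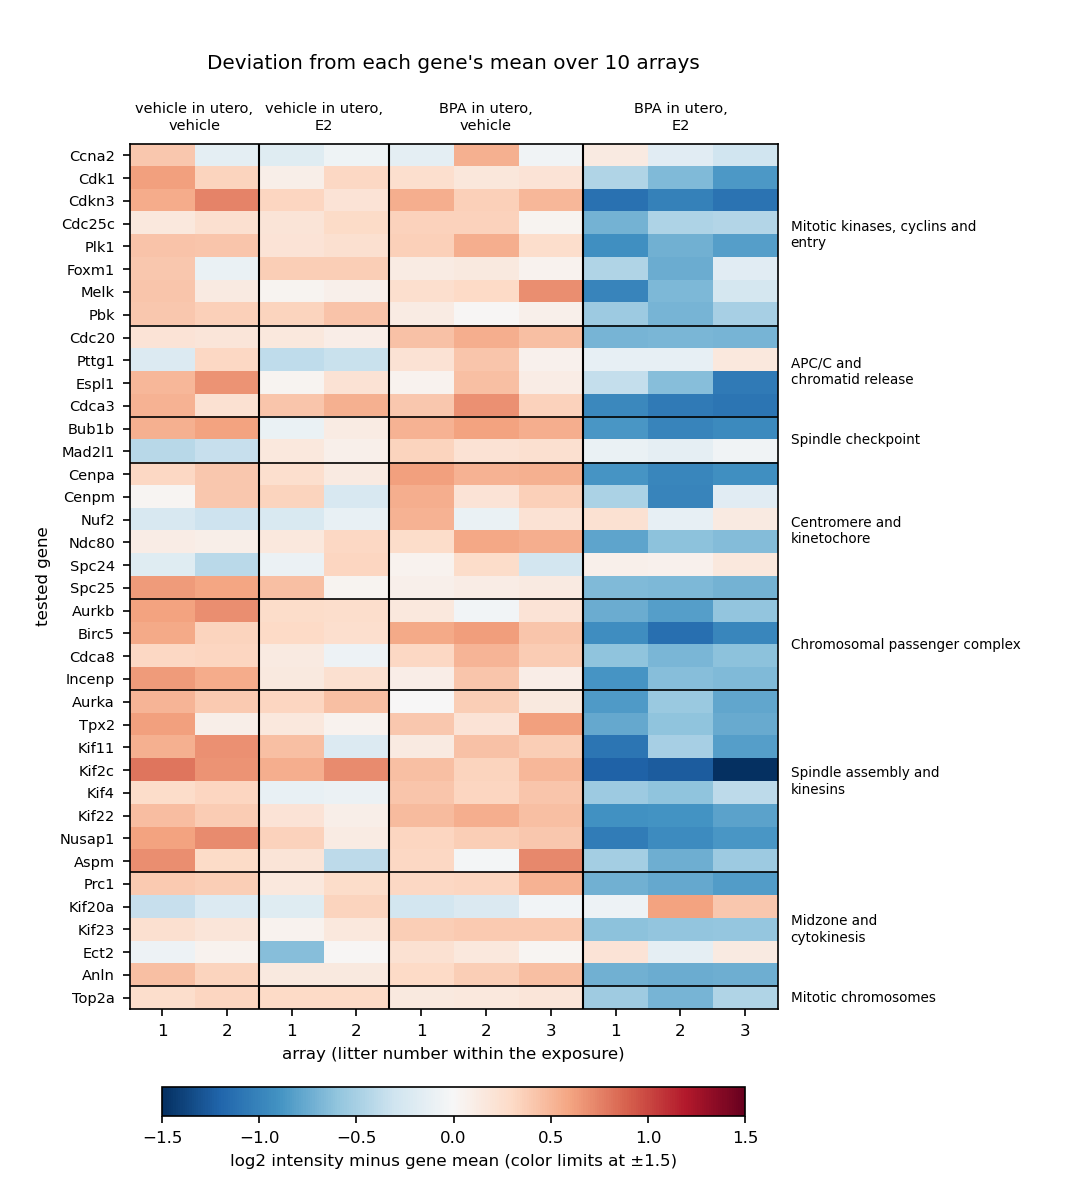
Deviation of each of the 38 tested genes (rows, by role) from its own mean over 10 arrays (columns, by group, numbered by litter), in log2 units. Nearly every row turns blue on the 3 arrays of BPA in utero with E2, which lay below all 7 other arrays for 30 genes, and the faint or mixed rows include Ccna2, Pttg1, Mad2l1, Nuf2, Spc24, Kif20a and Ect2.

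The promoters of the 4 members with the largest falls that hold both elements known from promoters of late cell-cycle genes are shown. The elements are the CCAAT box, bound by NF-Y, and the cell-cycle homology region (CHR), searched as TTTGAA or TTTAAA. Each line gives the 250 bases before the annotated start, 5′ to 3′ on the gene's strand, with the motif matches on either strand in capitals (ATTGG and TTCAAA are CCAAT and TTTGAA read on the opposite strand).
Cdkn3: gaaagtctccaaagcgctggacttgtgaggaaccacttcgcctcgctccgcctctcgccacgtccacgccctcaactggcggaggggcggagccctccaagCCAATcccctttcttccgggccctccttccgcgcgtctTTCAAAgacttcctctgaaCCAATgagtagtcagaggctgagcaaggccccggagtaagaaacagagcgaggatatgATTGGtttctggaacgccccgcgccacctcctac
Cdca3: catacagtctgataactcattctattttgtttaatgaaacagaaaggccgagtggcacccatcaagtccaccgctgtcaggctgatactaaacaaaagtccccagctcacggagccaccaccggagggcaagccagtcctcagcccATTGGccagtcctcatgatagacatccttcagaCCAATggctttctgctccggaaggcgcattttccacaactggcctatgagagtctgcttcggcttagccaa
Bub1b: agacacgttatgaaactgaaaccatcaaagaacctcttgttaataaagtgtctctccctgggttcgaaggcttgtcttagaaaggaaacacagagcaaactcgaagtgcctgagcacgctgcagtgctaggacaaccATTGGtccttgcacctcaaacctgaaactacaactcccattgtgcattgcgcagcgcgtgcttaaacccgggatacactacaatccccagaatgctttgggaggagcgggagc
Cenpa: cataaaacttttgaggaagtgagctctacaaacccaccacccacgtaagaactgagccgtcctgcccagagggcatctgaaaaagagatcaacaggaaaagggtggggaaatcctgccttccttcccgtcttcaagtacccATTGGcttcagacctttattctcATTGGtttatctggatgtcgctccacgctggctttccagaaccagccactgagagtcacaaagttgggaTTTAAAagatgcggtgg
The stretches are chr14:46760291-46760540 for Cdkn3, chr6:124829926-124830175 for Cdca3, chr2:118597961-118598210 for Bub1b and chr5:30666636-30666885 for Cenpa, all on the plus strand of GRCm38.p6, from RefSeq. Windows reached 50 bases past the start, and there, outside the printed stretch, a TTTGAA began at base 31 in Cdca3, 41 in Bub1b and 17 in Cenpa, counted from the start as 1. A last CCAAT box of Cdca3 spans the start and is not in capitals. Cdkn3 held 3 CCAAT boxes and 1 TTTGAA upstream of its start. Promoter windows were given for 29 of the 38 tested genes (31 windows, since Ect2 and Prc1 had a pair each). A CCAAT box lay in 71.0% of them and in 37.4% of all 32851 promoter windows of the same 300 bases. TTTGAA lay in 77.4% against 17.9%, TTTAAA, which reads the same on both strands, in 22.6% against 13.2%, and both a CCAAT box and 1 of the CHR forms in 67.7% against 10.7%. Kif2c held TTTAAA and TTTGAA and Birc5 only TTTAAA, neither with CCAAT in its window. Of the windows of called members, 19 of 27 held both (70.4%), and of uncalled members 2 of 4, both of Ect2, too few to compare. The members were chosen as mitotic genes, and the part of these elements in the E2 response was not tested.

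Regulators of mitotic entry were lower in 7 of 8 cases after BPA (median -0.82), and only Cdkn3 was called after vehicle. Levels are given for the 2 arrays of vehicle then vehicle, the 2 of vehicle then E2, the 3 of BPA then vehicle and the 3 of BPA then E2, in that order throughout. Cdkn3, a phosphatase that acts on cyclin-dependent kinases, read 8.63 and 8.82, then 8.39 and 8.27, then 8.62, 8.42 and 8.57, and last 6.95, 7.05 and 6.96. Its levels fell in both exposures, and the drop after BPA was larger (-1.55 ± 0.085, adjusted p = 4.32e-06) than after vehicle (-0.39 ± 0.10, adjusted p = 0.0284). Polo-like kinase Plk1, which drives centrosome maturation and mitotic entry, stood at 9.32 and 9.30, then 9.09 and 9.13, then 9.24, 9.43 and 9.14, and last 7.97, 8.16 and 8.06. All 3 BPA-E2 arrays lay below every other array, and the change after BPA was -1.21 ± 0.09 (adjusted p = 2.41e-05) against -0.20 ± 0.11 after vehicle (adjusted p = 0.245). The brightest member of this role was the mitotic kinase Pbk, at 9.74 and 9.70, then 9.68 and 9.77, then 9.47, 9.36 and 9.42, and last 8.80, 8.64 and 8.85. Pbk changed by 0.0013 ± 0.094 after vehicle (adjusted p = 0.994) and fell by 0.65 after BPA (adjusted p = 0.000367), from a BPA-vehicle level that was already lower than in vehicle-vehicle uteri.

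The phosphatase Cdc25c, which activates Cdk1, was dim, at 5.79 and 5.88, then 5.83 and 5.92, then 5.98, 5.98 and 5.67, and last 4.93, 5.17 and 5.20. It was detected on 9 arrays, fell by 0.78 after BPA (adjusted p = 0.00103) and changed by 0.044 ± 0.14 after vehicle. The kinase Melk, detected on 9 arrays, gave 6.41 and 6.13, then 6.03 and 6.07, then 6.25, 6.29 and 6.68, and last 5.004, 5.32 and 5.72, with BPA-E2 arrays spread over a wider range than those of other groups and a change of -1.06 ± 0.19 (adjusted p = 0.00327). The cyclin Ccna2, detected on 2 arrays, read 5.05 and 4.49, then 4.46 and 4.58, then 4.50, 5.18 and 4.60, and last 4.78, 4.47 and 4.35. These values overlapped between all groups, and on the other 8 arrays it was not detected. Cdk1, the mitotic kinase itself, changed by -0.87 ± 0.12 after BPA (adjusted p = 0.000917), and the transcription factor Foxm1, a driver of late cell-cycle genes, by -0.56 ± 0.16 (adjusted p = 0.0308). With a litter block Foxm1 was no longer called (adjusted p = 0.0564), nor was it without any 1 of the BPA-vehicle arrays (replicates 1, 2 and 3: adjusted p = 0.0766, 0.0803 and 0.062) or without BPA-E2 replicate 1 or 2 (0.0737 and 0.0929).

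Of the genes of the anaphase-promoting complex (APC/C) and of chromatid release, 3 of 4 were lower after BPA (median -1.03) and 0 of 4 were called after vehicle by limma. Cdc20, the activator that turns the APC/C on at anaphase, read 9.67 and 9.64, then 9.63 and 9.57, then 9.91, 10.01 and 9.92, and last 8.78, 8.78 and 8.77. The BPA-E2 arrays nearly coincided and lay below every other array. Cdc20 changed by -1.17 ± 0.062 after BPA (adjusted p = 3.39e-06) and -0.055 ± 0.076 after vehicle (adjusted p = 0.656). Cdca3, also a substrate of the APC/C, gave 9.38 and 9.10, then 9.28 and 9.39, then 9.27, 9.55 and 9.21, and last 7.90, 7.80 and 7.77. Its fall after BPA was -1.52 ± 0.11 (adjusted p = 2.48e-05), with a change of 0.096 ± 0.14 after vehicle (adjusted p = 0.674), and its difference of responses was among the largest of the set (-1.62 ± 0.18). Espl1, the separase that cleaves cohesin, changed by -0.89 ± 0.18 (adjusted p = 0.00577). Its inhibitor securin, Pttg1, was detected on 3 arrays and read 4.64 and 5.15, then 4.47 and 4.51, then 5.06, 5.26 and 4.91, and last 4.72, 4.73 and 5.003, with no call in any comparison.

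Both tested members of the spindle checkpoint were called in each E2 response, and after vehicle they went opposite ways. Bub1b, which encodes the checkpoint protein BubR1, read 8.48 and 8.56, then 7.85 and 8.08, then 8.47, 8.56 and 8.49, and last 7.07, 6.96 and 6.996. It fell with E2 in both exposures, with changes of -0.55 ± 0.096 after vehicle (adjusted p = 0.00421) and -1.50 ± 0.079 after BPA (adjusted p = 3.15e-06), and the difference was -0.94 ± 0.12 (adjusted p = 0.00126). Mad2l1, whose protein Mad2 holds Cdc20 inactive until chromosomes are attached, stood at 9.61 and 9.69, then 10.19 and 10.11, then 10.37, 10.25 and 10.28, and last 9.94, 9.89 and 9.98. The vehicle-vehicle arrays were its lowest, below those of BPA with E2. Mad2l1 rose by 0.50 with E2 after vehicle (adjusted p = 0.00339), was 0.65 ± 0.076 higher in BPA-vehicle than in vehicle-vehicle uteri (adjusted p = 0.000349), and fell by 0.36 with E2 after BPA (adjusted p = 0.00443), the smallest fall called. Its rise after vehicle rests on the brightest probe and was not called with the compared groups alone (adjusted p = 0.0602). The other probe, detected on all 10 arrays, read 0.27 ± 0.16 after vehicle (adjusted p = 0.296) and -0.58 ± 0.13 after BPA (adjusted p = 0.0117).

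At the centromere and kinetochore, 4 of 6 genes were lower after BPA (median -0.85) and 0 of 6 were called after vehicle by limma. Cenpa, the histone variant that marks centromeres, was the brightest of them at 11.27 and 11.36, then 11.21 and 11.09, then 11.57, 11.49 and 11.49, and last 10.08, 9.98 and 10.04. The groups did not overlap after BPA, and its change of -1.49 ± 0.07 had the smallest adjusted p of all members (1.87e-06), against -0.16 ± 0.086 after vehicle (adjusted p = 0.21). Ndc80, the microtubule-binding subunit of the outer kinetochore, read 6.55 and 6.53, then 6.60 and 6.76, then 6.72, 7.02 and 6.99, and last 5.65, 5.83 and 5.80. It changed by -1.15 ± 0.1 after BPA (adjusted p = 6.03e-05) and by 0.14 ± 0.12 after vehicle (adjusted p = 0.476). Its partner Nuf2 was detected on 4 arrays and read 4.91 and 4.85, then 4.93 and 5.04, then 5.68, 5.06 and 5.36, and last 5.38, 5.03 and 5.28, with no call in any comparison. Of the remaining subunits of this complex, Spc25 fell by 0.79 after BPA (adjusted p = 0.000548) and Spc24 read 0.085 ± 0.15 (adjusted p = 0.729). Cenpm, a subunit of the inner kinetochore, changed by -0.92 ± 0.23 (adjusted p = 0.0174), a call lost without BPA-vehicle replicate 1 (adjusted p = 0.0588).

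All 4 subunits of the chromosomal passenger complex, which corrects faulty attachments and later directs cytokinesis, were lower after BPA (median -0.98). Birc5, survivin, read 9.70 and 9.47, then 9.43 and 9.38, then 9.70, 9.76 and 9.55, and last 8.20, 8.01 and 8.16. Its BPA-E2 arrays lay more than 1 log2 unit below every other array, the change was -1.55 ± 0.094 (adjusted p = 6.99e-06), and after vehicle it was -0.18 ± 0.12 (adjusted p = 0.306). Cdca8, borealin, gave 9.49 and 9.50, then 9.31 and 9.10, then 9.49, 9.69 and 9.55, and last 8.57, 8.49 and 8.56. It fell by 1.04 after BPA (adjusted p = 3.68e-05) and changed by -0.29 ± 0.10 after vehicle (adjusted p = 0.0741). After BPA the scaffold Incenp changed by -0.93 ± 0.11 (adjusted p = 0.000371) and the kinase Aurkb by -0.82 ± 0.093 (adjusted p = 0.000281). Aurkb alone of the 4 was called after vehicle (-0.38 ± 0.11, adjusted p = 0.0419), and that call was lost without any 1 of the 4 vehicle-exposed arrays (vehicle-vehicle replicates 1 and 2: adjusted p = 0.0844 and 0.169; vehicle-E2 replicates 1 and 2: 0.124 and 0.135) and without BPA-vehicle replicate 1 (0.0583) or BPA-E2 replicate 1 (0.0612). For 10 of the 32 genes lower after BPA the difference of the responses was not called, so their responses are not shown to differ between the exposures. They were Incenp, Aurkb, Spc25, Cdk1, Espl1 and Foxm1 (adjusted p = 0.0769, 0.0789, 0.114, 0.0692, 0.354 and 0.0766) and Melk, Kif11, Cenpm and Aspm (0.0949, 0.217, 0.216 and 0.578). The differences of Cdk1 and Foxm1 were called without background correction (adjusted p = 0.0105 and 0.0303), in the authors' processed values (0.0141 and 0.0316) and with robust estimation and a variance trend (0.00418 and 0.0298), and that of Incenp with the last of these (0.0314). Leaving out 1 array gave a call to Foxm1 (without vehicle-vehicle replicate 1, 0.0356, or BPA-E2 replicate 3, 0.0395), Melk (without BPA-E2 replicate 3, 0.0327), Cdk1 (without BPA-E2 replicate 1, 0.0401), Spc25 (without vehicle-E2 replicate 2, 0.0121) and Aurkb (without BPA-vehicle replicate 2, 0.0435).

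**Figure D2:**
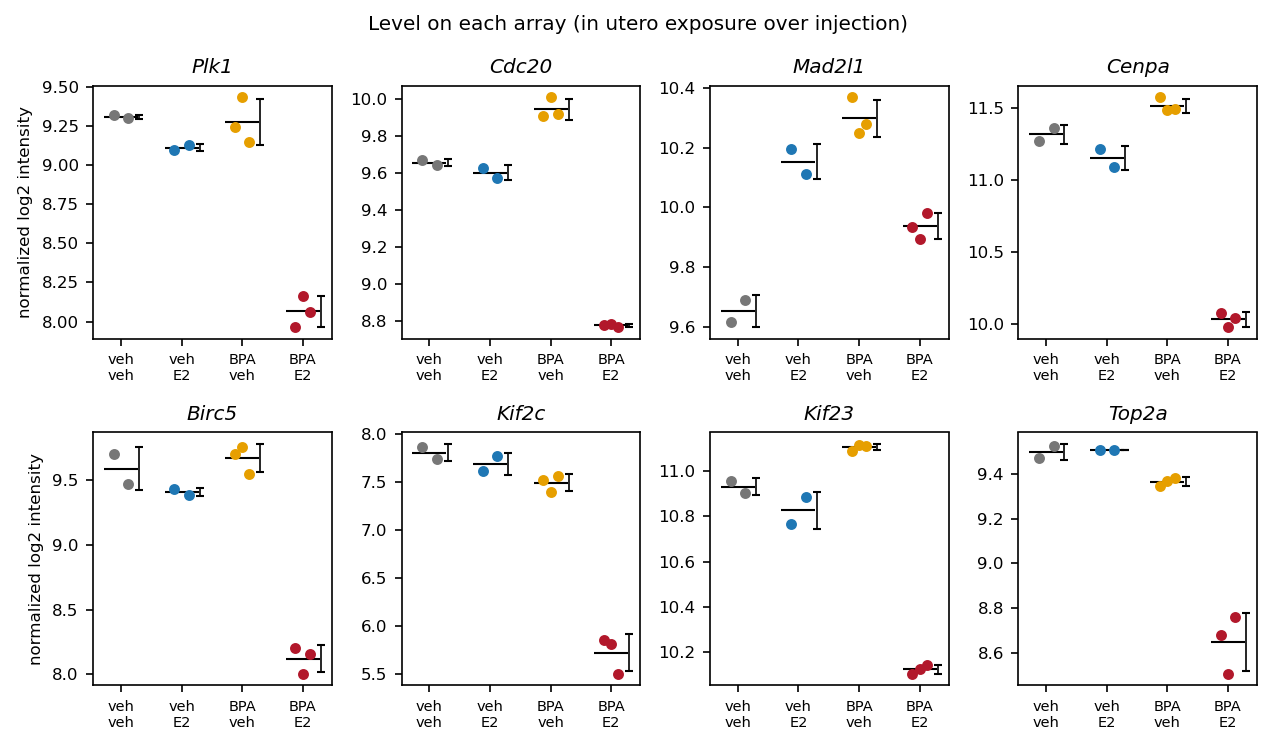
Normalized log2 intensity of 8 members from different roles on every array (points), with the group mean (line) and SD (bars), for vehicle (veh) or BPA in utero over vehicle or E2 injection. The vertical scales do not start at 0 and differ between genes. In all but Mad2l1 the 3 BPA-E2 arrays sit below the other 7 arrays, and in Mad2l1 the vehicle-vehicle arrays are lowest.

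Among spindle assembly factors and kinesins all 8 of 8 were lower after BPA (median -1.12), and 2 of 8 after vehicle. Kif2c, which depolymerises microtubule ends, read 7.87 and 7.74, then 7.61 and 7.77, then 7.52, 7.40 and 7.56, and last 5.85, 5.81 and 5.50. It carried the largest change of the 38 genes, -1.77 ± 0.11 (adjusted p = 6.99e-06), about 3.41-fold, against -0.12 ± 0.13 after vehicle (adjusted p = 0.584). Kif22, a motor that pushes chromosome arms from the poles, gave 9.09 and 9.02, then 8.84 and 8.72, then 9.11, 9.18 and 9.08, and last 7.72, 7.74 and 7.83. It changed by -1.36 ± 0.07 after BPA (adjusted p = 2.95e-06) and by -0.27 ± 0.086 after vehicle, just short of a call (adjusted p = 0.0522). Nusap1, which bundles spindle microtubules, was called in both responses, at -0.42 ± 0.10 after vehicle and -1.32 ± 0.084 after BPA, and so was the chromokinesin Kif4, at -0.40 ± 0.09 and -0.89 ± 0.074. The kinase Aurka and its activator Tpx2 changed by -0.90 ± 0.12 and -1.12 ± 0.15 after BPA (adjusted p = 0.00056 and 0.000712), and Kif11, the motor that separates the spindle poles, by -1.12 ± 0.20 (adjusted p = 0.0031). Aspm, a spindle-pole protein, was detected on all 5 vehicle-injected arrays and on 0 of 3 BPA-E2 arrays, with values of 5.92 and 5.50, then 5.41 and 4.83, then 5.53, 5.18 and 5.93, and last 4.71, 4.48 and 4.68. Against the arrays' detection limit it was at least 1.42-fold lower with E2 after BPA (adjusted p = 0.0128), a bound taken from the lowest signal among probes detected on those arrays.

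Among genes of the midzone and of cytokinesis 3 of 5 were lower after BPA (median -0.98) and 0 of 5 were called after vehicle by limma. Anln, the anillin scaffold of the cleavage furrow, read 9.76 and 9.64, then 9.45 and 9.46, then 9.61, 9.68 and 9.77, and last 8.59, 8.57 and 8.57. Its BPA-E2 arrays nearly coincided, the change after BPA was -1.11 ± 0.069 (adjusted p = 7.86e-06), and after vehicle the change was -0.24 ± 0.084 (adjusted p = 0.0706). Kif23, the motor subunit of centralspindlin, was among the brightest members at 10.96 and 10.90, then 10.77 and 10.88, then 11.09, 11.12 and 11.11, and last 10.11, 10.12 and 10.14. It fell by 0.98 after BPA (adjusted p = 9.29e-06) and changed by -0.10 ± 0.077 after vehicle (adjusted p = 0.378). Prc1, which bundles the antiparallel microtubules of the midzone, fell by 1.16 after BPA (adjusted p = 1.65e-05). Ect2, the exchange factor that activates RhoA at the furrow, was detected on 9 arrays at 5.20 and 5.32, then 4.63 and 5.28, then 5.50, 5.42 and 5.30, and last 5.48, 5.14 and 5.41. The motor Kif20a, detected on 2 arrays, both of BPA with E2, read 4.41 and 4.55, then 4.57 and 5.09, then 4.48, 4.54 and 4.72, and last 4.68, 5.36 and 5.16. Neither was called. Kif20a was not detected on any BPA-vehicle array, and set against the detection limit of those arrays the lower bound of its change was 1-fold, that is no rise. Kif20a gained a call without BPA-E2 replicate 1, the array of that group on which it was not detected. Of that group this leaves only the 2 arrays through which Kif20a entered the test, so the call is not read as a rise. Top2a, the topoisomerase that untangles mitotic chromosomes, read 9.47 and 9.52, then 9.51 and 9.51, then 9.35, 9.37 and 9.38, and last 8.68, 8.51 and 8.76. The vehicle-vehicle and vehicle-E2 arrays overlapped (adjusted p = 0.955), and after BPA it fell by 0.72 (adjusted p = 0.000216).

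**Figure D3:**
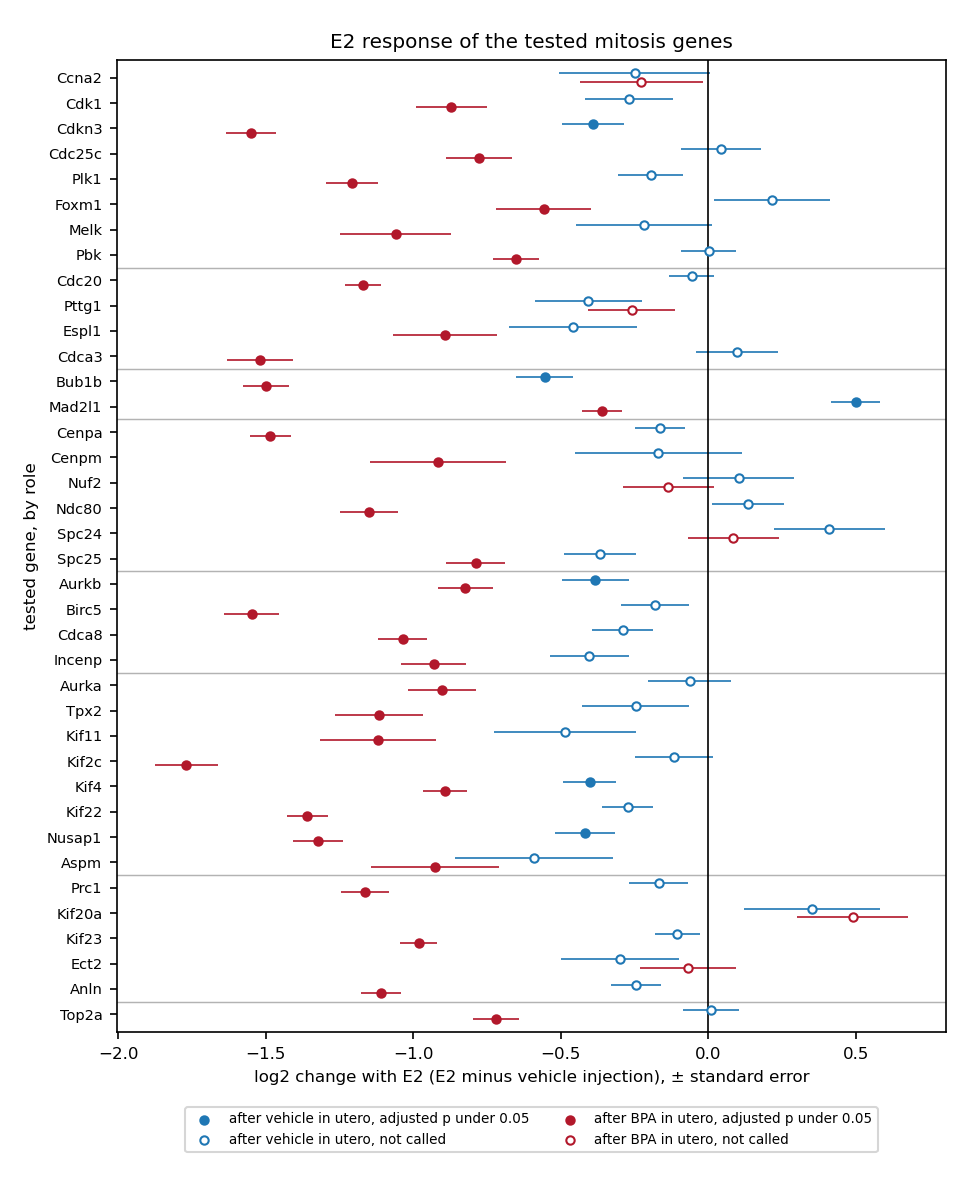
Change with E2 after vehicle (blue) and after BPA in utero (red) for the 38 tested genes by role, as log2 difference ± SE, filled where called at an adjusted p under 0.05. Most red points lie left of their blue partners, 32 red points are filled against 6 blue ones, and Mad2l1 is the gene filled on opposite sides of 0. Points are brightest probes, and the other probe of Mad2l1 was not called after vehicle.

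The size of these falls depended on the background correction, while their direction and number did so little. Without background correction the median change after BPA was -0.52, and in the authors' processed values -0.54, against -0.93. In 16 of the 38 genes 2 or more probes were detected. Of their 23 other probes 17 were lower after BPA, 0 were higher by limma, and 23 of 23 had a negative sign, adjusted over all 23942 detected probes. All 3 probes of Birc5 and of Kif23 and all 4 of Cdc20 were lower. The second probe of Cenpa, detected on 3 arrays, read -0.44 ± 0.27 (adjusted p = 0.272). The other probes of Top2a read -0.11 ± 0.18 and -0.19 ± 0.15 and were not called, so its fall rests on the brightest probe alone. The same held for Cenpm, whose other probes, detected on all 10 arrays, read -0.49 ± 0.19 and -0.54 ± 0.20 (adjusted p = 0.0915 and 0.086), and for Melk, whose other probe, detected on 4, read -0.67 ± 0.22 (adjusted p = 0.0598). Spc24 showed the reverse: its brightest probe was not called, while the other fell by 1.08 (adjusted p = 0.00601). For the difference of the responses, 11 of the 23 other probes were called lower. No other probe was called there for Bub1b (-0.63 ± 0.29, adjusted p = 0.211), Cdc25c (-0.76 ± 0.27, 0.118) or Cenpa (-0.51 ± 0.42, 0.498). The same held for Top2a (-0.26 ± 0.28 and 0.41 ± 0.24, 0.629 and 0.32), so these called differences rest on the brightest probe.

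**Figure D4:**
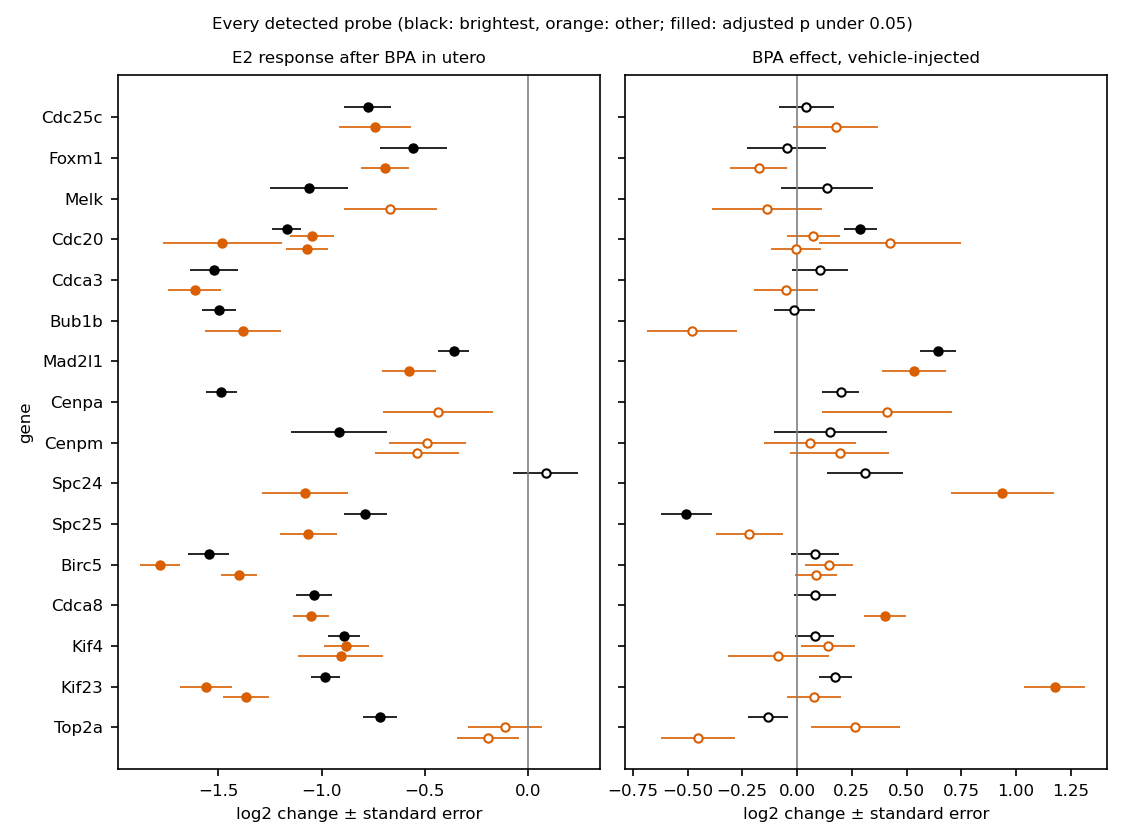
Change of every detected probe of the 16 genes with 2 or more, as log2 difference ± SE, for E2 after BPA in utero (left) and for BPA in vehicle-injected offspring (right), black for the brightest probe and orange for others, filled where called. On the left the orange points all lie below 0, and on the right Kif23, Spc24 and Cdca8 have 1 probe each that was called higher while the brightest was not.

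Before any estradiol, few mitotic genes were called between BPA and vehicle in utero. In vehicle-injected offspring 3 of 38 were higher and 5 lower with BPA, where 15.6% and 15.5% of all units were called higher and lower, so the members stood at or below the background share. At an unadjusted p under 0.05 by limma, 6 were higher and 6 lower. The median was 0.02, as over all units. Higher were Mad2l1 (0.65 ± 0.076), Ndc80 (0.37 ± 0.11) and Cdc20 (0.29 ± 0.07), and lower were Aurkb (-0.55 ± 0.10), Spc25 (-0.50 ± 0.11), Incenp (-0.39 ± 0.12), Pbk (-0.31 ± 0.086) and Nusap1 (-0.29 ± 0.094). Of these 8 calls those of Mad2l1 and Aurkb held under every alternative run. The number lower was 1 and 2 without vehicle-vehicle replicates 1 and 2, 3, 3 and 2 without BPA-vehicle replicates 1, 2 and 3, and 3 without BPA-E2 replicate 2. The number higher was 1 without either vehicle-vehicle array. Within the kinetochore the called members went opposite ways, Ndc80 up and Spc25 down. The call of Spc25 rests on its brightest probe, and its other, detected on all 10 arrays, read -0.22 ± 0.15 (adjusted p = 0.34). That of Cdc20 does too, since its other probes read 0.075 ± 0.12, 0.42 ± 0.32 and -0.0032 ± 0.11 (adjusted p = 0.695, 0.38 and 0.988). The other probe of Mad2l1 was called higher (0.53 ± 0.15, adjusted p = 0.0257). Probes also disagreed here: 1 probe of Kif23 was higher by 1.18 ± 0.14 (adjusted p = 0.00042), while its brightest changed by 0.17 ± 0.077 (adjusted p = 0.129) and the remaining one by 0.077 ± 0.12. That Kif23 probe read 8.79 and 9.25 in vehicle-vehicle uteri, 9.07 and 9.09 with E2, 10.23, 10.15 and 10.20 with BPA and 8.70, 8.47 and 8.72 with both.

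With estradiol in both arms, BPA-exposed uteri were lower than vehicle-exposed uteri for 29 of 38 genes and higher for 0 by limma, where 15.4% of all units were called lower and 15.6% higher, and at an unadjusted p under 0.05 the counts were 31 and 0. The median was -0.86, against 0.02 over all units. This comparison shares the BPA-E2 arrays with the E2 response after BPA and is not independent of it. The largest differences were those of Kif2c (-1.96 ± 0.12), Cdca3 (-1.51 ± 0.13), Cdkn3 (-1.34 ± 0.095) and Birc5 (-1.29 ± 0.11). Mad2l1 was not called (-0.22 ± 0.076, adjusted p = 0.0601), nor were Aspm (-0.50 ± 0.24, adjusted p = 0.16) and Cenpm (-0.59 ± 0.26, adjusted p = 0.116). Calls were lost for Kif11 without vehicle-E2 replicate 1 (adjusted p = 0.095), for Espl1 without vehicle-E2 replicate 2 (0.0856), and for Melk without either vehicle-E2 array (0.112 and 0.128) or without BPA-E2 replicate 1 or 2 (0.0823 and 0.0778). Without vehicle-E2 replicate 2, the difference of Ect2 read 0.71, against 0.38 with all arrays. This leaves 1 vehicle-E2 array, on which Ect2 was dim (4.63), and it was detected on only 1 of the 2 arrays of that group. The value of 0.71 is therefore not read as a rise.

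**Figure D5:**
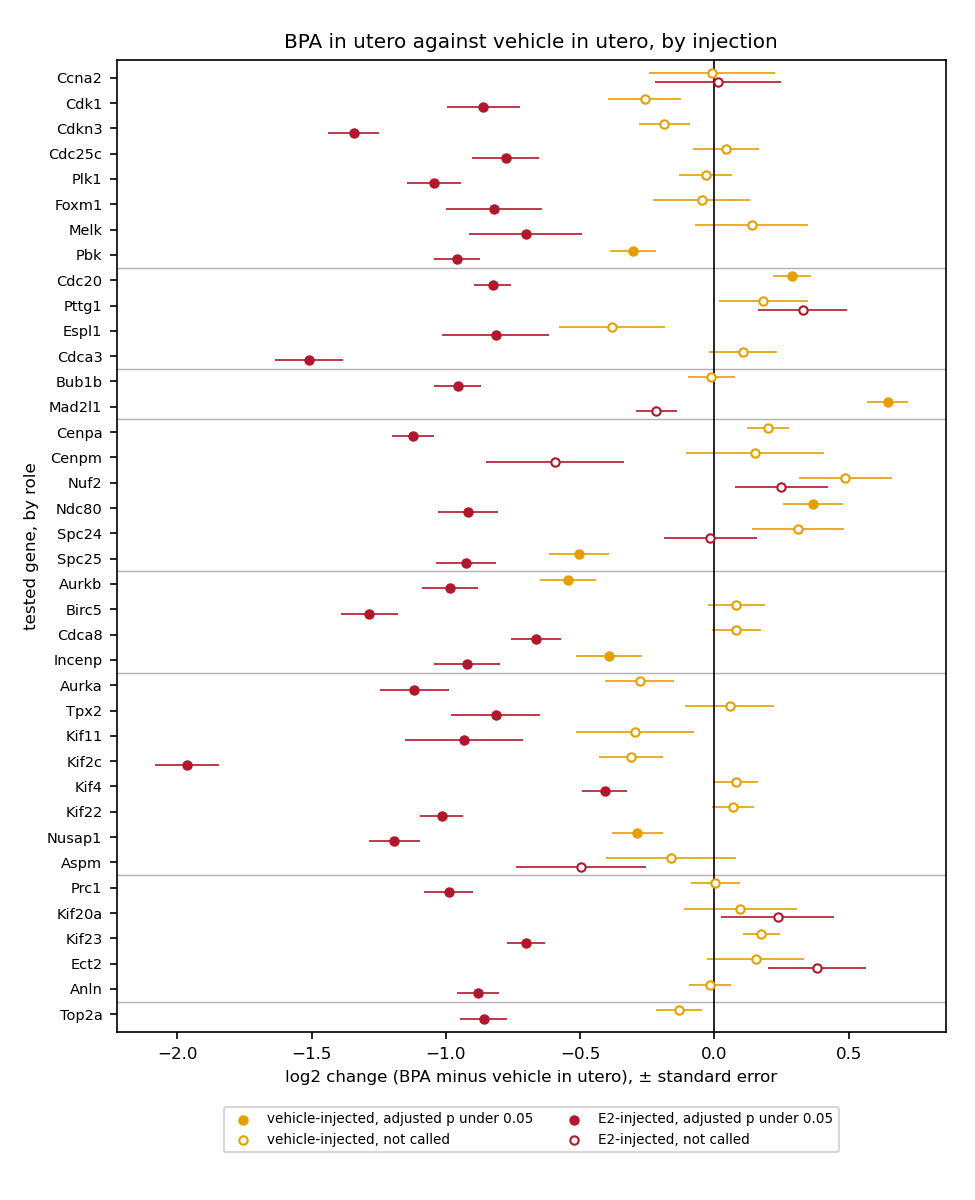
Difference between BPA and vehicle in utero for the 38 tested genes by role, in vehicle-injected (orange) and E2-injected offspring (red), as log2 difference ± SE, filled where called. Orange points scatter around 0 with 8 filled, and 29 red points are filled, all left of 0. Slide and exposure cannot be told apart in either.

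Further mitotic genes outside the 50 were also lower more often than higher with E2 after BPA. Of 106 further genes of condensin, cohesin, kinetochore, APC/C and spindle 80 were tested, and 32 were lower and 4 higher with E2 after BPA (median -0.26), where 13.7% and 15.3% of all units were called. After vehicle 6 were lower and 1 higher (median -0.05), below the 11.4% and 11.0% of all units. The difference of the responses was called lower for 11 of the 80 (13.8%, against 7.70% of all units) and higher for 0 by limma. Those with the largest falls after BPA were Iqgap3, a scaffold of the cell cortex (-1.58), Depdc1b (-1.34), the spindle motor Kif15 (-1.27) and the kinetochore gene Cenph (-1.14). Higher were the APC/C subunit Anapc11 (0.58), the cohesin subunits Stag1 (0.39) and Smc1a (0.23), and the kinetochore gene Zwint (0.24). After vehicle the largest falls were those of Stmn1, which binds tubulin (-1.05), the cohesin acetyltransferase Esco2 (-0.81), Ckap2l (-0.74) and Cenpn (-0.55), and Zw10 of the kinetochore rose by 0.54. In vehicle-injected offspring BPA went with 4 higher and 4 lower of the 80 (5% each, against 15.6% and 15.5% of all units). They were Esco2 (-0.84), Kntc1 (-0.71), Cdc25b (-0.57) and Ncaph (-0.32), and Bub3 (0.48), Cdc16 (0.40), Kif3a (0.33) and Smc1a (0.32).

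Genes of earlier steps of the cycle were called in both directions, with E2 after BPA at shares near those of all units. Of 48 tested genes of DNA replication and the G1/S step, 8 were lower and 5 higher with E2 after BPA (median -0.01). These are 16.7% and 10.4%, against 13.7% and 15.3% of all units. After vehicle 9 were lower and 1 higher (18.8% and 2.08%, against 11.4% and 11.0%). Thymidine kinase Tk1 (-1.05), the kinase activator Dbf4 (-0.60) and the single-strand binding subunit Rpa3 (-0.54) fell after BPA, while the transcription factor E2f1 (0.53), the helicase subunit Mcm3 (0.38) and the origin subunit Orc6 (0.33) rose. After vehicle the largest falls were those of Pcna, the sliding clamp (-0.77), the DNA ligase Lig1 (-0.76) and the histone chaperone subunit Chaf1b (-0.73), and the kinase Cdc7 rose by 0.44. The difference of responses was called higher for 6 genes and lower for 1 (12.5% and 2.08%, against 7.87% and 7.70% of all units). Those higher were led by Pcna (1.03), Gins1 of the replicative helicase (0.79) and E2f1 (0.64), and Dbf4 was lower (-0.82). For Pcna the difference of 1.03 joins the called fall after vehicle to an uncalled 0.251 after BPA (adjusted p = 0.291). In vehicle-injected offspring 6 of the 48 were higher and 2 lower with BPA (12.5% and 4.17%, against 15.6% and 15.5% of all units). They were led by the polymerase subunits Pold2 (0.86) and Pold1 (0.81) and, downward, Chaf1b (-0.53). With E2 in both arms, 17 of the 48 were higher and 5 lower with BPA (35.4% and 10.4%, against 15.6% and 15.4% of all units). The largest differences were those of Pold1 (1.05) and Dbf4 (-0.70).

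A list of 19 G1 regulators held D and G cyclins, Cdk4 and Cdk6, inhibitors of cyclin-dependent kinases, pocket proteins, E2f4 and E2f5. Of its 17 tested genes, 3 were higher and 2 lower with E2 after BPA. These are 17.6% and 11.8%, against 15.3% and 13.7% of all units. After vehicle 3 were higher and 3 lower (17.6% each, against 11.0% and 11.4%). The cyclin Ccnd2 (0.87 after vehicle, 0.64 after BPA) and the inhibitor Cdkn1a (0.30 and 0.36) rose in both. The inhibitors Cdkn2b (-0.60) and Cdkn2c (-0.40) fell after BPA. After vehicle the pocket protein gene Rbl1 (-0.73) and the cyclin Ccng1 (-0.43) fell and the inhibitor Cdkn2d rose (0.50). The inhibitor Cdkn1c fell by 0.31 after vehicle and rose by 0.89 after BPA, and the difference was 1.198 (adjusted p = 0.000159). The difference was also called for Cdkn2d (-0.81), Rbl1 (0.68), Ccng1 (0.49) and the cyclin Ccnd1 (0.396). With BPA, Ccnd2 (1.197), Cdkn2d (0.55) and Ccnd1 (0.39) were higher and Cdkn1c lower (-0.72) in vehicle-injected offspring, and Ccnd2 (0.97), Ccnd1 (0.78) and Cdkn1c (0.48) were higher in E2-injected offspring.

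Markers of several uterine cell types also changed with E2 after BPA, in both directions. Over all units, 13.7% were called lower and 15.3% higher in that comparison. The shares were 11.4% and 11.0% with E2 after vehicle, and 15.5% and 15.6% with BPA in vehicle-injected offspring. Of 13 tested epithelial markers (of 15 listed, with Epcam not detected), 11 were lower and 1 higher with E2 after BPA, and 7 lower and 1 higher after vehicle. Their summed level on the linear scale ranged from 28100 to 28500 in vehicle-vehicle, 21900 to 22700 in vehicle-E2, 26000 to 28700 in BPA-vehicle and 15700 to 15800 in BPA-E2 uteri. The stroma list, with Postn not detected, had 6 of 11 lower and 3 higher after BPA, and sums of 60500 to 62300, 56400, 56000 to 56600 and 47000 to 48400. For smooth muscle 6 of 10 were lower and 1 higher, with sums of 131000 to 133000, 114000 to 122000, 119000 to 127000 and 101000 to 106000. Mast cell markers were higher with E2 after BPA for 6 of 7 and adipocyte markers for 4 of 5. For mast cells, with Ms4a2 not detected, the sums were 3470 to 3560, 3340 to 3650, 2400 to 2540 and 4730 to 4880, and for adipocytes, with Plin1 and Fabp4 not detected, 2640 to 2800, 1400 to 1430, 2110 to 2170 and 4330 to 4550. Macrophage markers, with Itgax not detected, were lower for 9 of 11 with E2 after vehicle and for 10 of 11 with BPA in vehicle-injected offspring, but with E2 after BPA 3 were lower and 1 higher. Their sums were 23800 to 24300, 13200, 9810 to 10200 and 8530 to 8740. Endothelial markers were higher for 3 of 9 and lower for 0 with E2 after BPA by limma, with sums of 6900 to 7060, 7200 to 7410, 6090 to 6380 and 8080 to 8460. In the same comparison 2 of 6 lymphocyte markers were higher and 0 lower, with Ms4a1, Cd8a, Cd4 and Gzmb not detected (sums of 549 to 573, 410 to 415, 373 to 457 and 435 to 488). Of the neutrophil and eosinophil markers 3 of 8 were higher and 1 lower, with Cxcr2 and Epx not detected (sums of 4620 to 4850, 1530 to 1610, 784 to 833 and 1210 to 1240). Of 3 erythroid and blood markers 1 was higher and 0 lower (sums of 37700 to 40500, 29500 to 32000, 37500 to 38900 and 43100 to 44600), and the 1 tested ovary marker was not called. The part of any of these cell types in the changes of the mitotic genes was not tested.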

How the data were processed

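Uterine RNA of 10 litter pools was measured on Illumina bead arrays. Per the file headers, the deposited table holds, per probe and array, a mean bead intensity (linear) with its detection p-value; bead-summary software and background subtraction are not given in the sources used here. A processed table of the authors, also linear intensity, was an alternative only. Signals were background-corrected from the detection p-values and quantile-normalized with neqc (limma 3.58.1, R 4.3.3, offset 16) and taken to log2. Probes detected at p under 0.05 on 2 or more arrays were kept (23942 of 45281), 1 per symbol. This gave 16272 units, 12403 genes and 3869 unnamed probes. Of all probes, 34885 had 1 symbol, 18 several and 10378 none here, and 6 symbols on the gene lists were updated through RefSeq synonyms. One limma fit of the 4 group means gave 5 comparisons, with two-sided moderated tests adjusted over all units. The few arrays per group and the signal over background limit the precision, and group sums of marker levels are on the linear normalized scale.

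The members and lists were chosen with earlier results of these data known. Values on every array are given, per role, for the 2 members with the smallest p in the E2 response after BPA, the brightest member, members called against most of their role, and members not detected on every array of a group or called in opposite directions by different probes. From the other lists called genes with the largest changes are named, up to 4 (mitotic) or 3 in each direction and comparison, and not every one that qualified is printed. The 8 members plotted by array and the members otherwise singled out were chosen after their values were seen. The bound for Aspm compares group means of log2 values after raising each undetected value to the lowest signal among detected probes of its array.

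The labels give each array a litter number, which was taken to pair arrays of 1 exposure. Deviations of same-numbered arrays from their group means correlated at 0.0222 for both vehicle pairs, which mirror each other, and at -0.00829, 0.0151 and -0.0409 for the BPA pairs across units, which shows no likeness within a litter. The fit without the block was kept as the main one. As alternatives, litter entered the E2 responses as fixed block terms and the BPA effects as a random effect (statmod 1.5.0, with a consensus correlation of 0.00993). Further settings were cyclic loess, signals without background correction, the authors' table, other detection filters, a test of every probe, robust estimation with a variance trend, fits of only the groups compared, and each array left out in turn. The fit was tested on simulated data. Figures were drawn with matplotlib 3.10.9.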

Additional observations from a re-analysis of the deposited data

Results flagged for a closer look

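The E2 response after BPA in utero was lower than that after vehicle in utero for 22 of the 38 tested genes, by the interaction term of the limma fit. The difference was between -1.65 and -1.29 for Kif2c (-1.65), Cdca3 (-1.62), Birc5 (-1.37), Cenpa (-1.32) and Ndc80 (-1.29), with adjusted p-values of 0.000103 (Cenpa) to 0.000879 (Ndc80). It was about 1 log2 unit for Cdkn3 (-1.16), Cdc20 (-1.11), Kif22 (-1.09), Plk1 (-1.01), Prc1 (-0.99), Bub1b (-0.94) and Nusap1 (-0.91), with adjusted p-values up to 0.00229. Smaller differences were those of Kif23 (-0.88), Tpx2 (-0.87), Mad2l1 (-0.86), Anln (-0.86), Aurka (-0.84), Cdc25c (-0.82), Cdca8 (-0.75), Top2a (-0.73), Pbk (-0.65) and Kif4 (-0.49), with adjusted p-values up to 0.0384 (Tpx2). The differences of Bub1b, Cdc25c, Cenpa and Top2a rest on the brightest probe, with no other probe called. Mad2l1 was the member whose responses were called in opposite directions, 0.50 after vehicle and -0.36 after BPA. That holds for its brightest probe only, since the other was not called after vehicle (0.27 ± 0.16, adjusted p = 0.296).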

How the results depend on the processing

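No result changed direction while called under any alternative. Calls held in every alternative for 30 of 32 genes in the E2 response after BPA, 18 of 22 in the difference of responses, 26 of 29 in the BPA effect with E2, 2 of 8 in the BPA effect without E2 and 0 of 6 in the E2 response after vehicle. The number lower after vehicle was 5, with no share over all units given for the alternatives. It was 10 without background correction, 9 with cyclic loess, 10 in the authors' table and 3 with litter as a replicate block. With the compared groups alone it was 0, and 0 were higher (7 and 1 at an unadjusted p under 0.05 by limma). That setting also gave 2 lower and 1 higher for BPA without E2. The litter block changed the calls named beside the results, those of Cdkn3, Nusap1, Foxm1, Tpx2, Kif4, Cdc25c and Melk, and no other.

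Medians after vehicle, after BPA, of the difference and of BPA with E2 were -0.13, -0.52, -0.47 and -0.56 without background correction, and -0.14, -0.54, -0.50 and -0.58 in the authors' table, with the cause not tested. Cyclic loess gave -0.996 after BPA, -0.91 for BPA with E2 and -0.0014 for BPA without E2. Without the filter, with 48 genes tested, the medians were -0.17, -0.88, -0.64 and -0.80, and -0.012 for BPA without E2, with 3 lower there and 1 higher for BPA with E2. With detection on at least 5 arrays, 34 genes, they were -1.01 after BPA, -0.84 for the difference, -0.0045 for BPA without E2 and -0.90 for BPA with E2.

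Leaving out 1 array at a time gave 1 to 6 lower and 1 higher after vehicle (median -0.22 to -0.14), 30 to 32 lower and 0 to 1 higher after BPA (-0.99 to -0.93), and 19 to 23 lower and 0 higher for the difference (-0.85 to -0.76). For BPA without E2 there were 1 to 4 lower and 1 to 3 higher (-0.037 to 0.049), and for BPA with E2 27 to 29 lower and 0 to 1 higher (-0.90 to -0.84). Genes at the background, such as Ccna2, Pttg1, Nuf2 and Kif20a, are limited by signal: they were detected on 2 to 4 arrays.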
